A study of Bos taurus with 11 samples.

Results

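Intervals beside microRNA genes were taken from a chromatin immunoprecipitation sequencing (ChIP-seq) data set of rumen epithelial primary cells (REPC) of cattle. An interval was included when its gene list named a microRNA gene (a symbol starting with MIR and a digit, or with MIRLET) and its paired distance to the start of that gene lay within 2000 bp on either side. This gave 1587 of 371758 intervals, beside 359 of the 591 microRNA genes that the gene lists named at any distance. The choice used the annotation and no signal value. The cells came from 1 Holstein bull calf, 2 weeks old and fed milk replacer only. Cells of the butyrate group were kept for 24 h in medium with 5 mM butyrate, and cells of the control group received no butyrate. Each of H3K27ac, H3K4me3, H3K4me1, H3K27me3 and CTCF had 1 butyrate and 1 control library, and 1 input library served as background for peak calling. With 1 library per mark and condition there was no replicate error and no test between the conditions, and all differences below compare these libraries.

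A microRNA is cut in steps from a longer RNA polymerase II transcript and, loaded into an Argonaute protein, lowers the stability and translation of the mRNAs that it pairs with. Many microRNA genes lie in introns of protein-coding genes and share the promoter of the host, while others have a promoter of their own, often some distance upstream of the hairpin. H3K4me3 marks promoters, H3K4me1 marks enhancers and the flanks of promoters, H3K27ac marks active promoters and enhancers, and H3K27me3 is laid down by Polycomb complexes at repressed genes. CTCF is a DNA-binding protein that borders chromatin loops. Butyrate, a product of rumen fermentation and the main fuel of the rumen wall, is also an inhibitor of histone deacetylases.

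The libraries held between 26824 and 54071 intervals each, and 0.0904 to 0.649% of them lay beside microRNA genes. The interval table gives no read totals, those in the mapping summary of the study were not used here, and how the signal relates to depth is not stated. Differences in depth or enrichment between 2 libraries therefore cannot be told apart from a change of the mark. Of the epithelial markers, KRT5 carried H3K4me3 at its start with a mean signal of 61.0 after butyrate and 65.9 in control, and ITGB4 carried 114.6 after butyrate and 148.9 in control. KRT14 had H3K4me3 after butyrate only, at 31.6. No interval had its summit within 2000 bp of the annotated start of CDH1 or TP63 in any library. Among markers of other cells, COL1A1 of fibroblasts carried H3K4me3 at 87.1 after butyrate and 101.2 in control, PDGFRA had H3K4me3 at 46.8 in control only, and PTPRC of leukocytes had no interval. By H3K4me3, the labelled cell type was borne out at KRT5 and ITGB4 in both libraries and at KRT14 after butyrate only. It was not borne out at CDH1 and TP63, and H3K4me3 at COL1A1 stood above that at KRT5 in both libraries. H3K27ac marked KRT5 after butyrate only, at 20.3, and KRT14 in neither library. It marked ITGB4 at 33.1 after butyrate and 41.7 in control, and COL1A1 at 27.1 after butyrate and 39.8 in control. The markers were thus mixed, and the part that fibroblasts had in these libraries was not tested. Of the 6 microRNA symbols of the epithelial list that the gene lists named, 3 had an interval within 2000 bp in any library. MIR205, which is high in stratified epithelium, carried H3K4me3 at 75.4 after butyrate and 72.9 in control, and H3K27ac at 28.0 after butyrate and 31.1 in control.

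Signal is given throughout as the deposited mean tag density over an interval, and where several intervals lay beside a gene the highest was used. A gene was called marked when an interval of that mark had its summit within 2000 bp of the start of the microRNA, because the deposited distance runs from the summit. A broad interval can cover a microRNA whose summit lies further away. For the 352 microRNA genes whose start could be derived from the distances, a second definition was therefore applied, and a gene was called reached when any part of an interval fell within 2000 bp of its start. The second definition was added after the data were seen. The other 7 symbols had no single start on which their listings agreed.

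The microRNA genes differed in the number of libraries that marked them. Of the 359 genes, 89 were marked in 1 of the 10 libraries, 160 in at least 4 and 7 in at least 8. The last group held MIR193A with 9 libraries, and MIR141, MIR200C, MIR210, MIR2309, MIR2416 and MIR92B with 8 each. The same counts were not computed over all gene symbols. By position, 210 genes lay inside another gene, 84 lay within 2000 bp of the start of another gene, and 58 lay outside genes. Summits of H3K4me3 intervals lay upstream of the microRNA in 65.8% of listings after butyrate and 65.5% in control, whereas for the other marks 43.5 to 59.7% lay upstream. The median distance between summit and start ran between 633 and 941.5 bp over the libraries.

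CpG islands were listed in fewer H3K27ac intervals after butyrate. Of 316 H3K27ac intervals beside microRNA genes after butyrate, 28.8% (95% exact binomial interval 23.9 to 34.1%) held a CpG island, against 49.1% (42.2 to 56.0%) of 214 in control. At the other gene starts the shares were 68.1% after butyrate and 77.1% in control. Over all other H3K27ac intervals they were 23.3% after butyrate and 34.6% in control, so a lower share after butyrate was general. The H3K27ac intervals were also shorter, at a median of 427 bp after butyrate and 705.5 bp in control. This too was general, at 417 bp after butyrate and 666 bp in control over all other intervals. The binomial ranges here and later cover counting error only, and neighboring microRNA genes can share an interval.

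H3K27ac was gained and lost at different kinds of position. It marked 227 microRNA genes, 113 of them in both libraries. An interval was present after butyrate only at 69 genes (30.4%, 24.5 to 36.8%), where 4.88% of all marked gene symbols had this call. It was present in control only at 45 genes (19.8%, 14.8 to 25.6%), against 29.9% of all gene symbols. Most of the butyrate-only calls lay inside genes. There they made up 61 of 131 marked microRNA genes (46.6%), against 6 of 29 outside genes (20.7%) and 2 of 67 near the start of another gene (2.99%). The control-only calls were 17 of 131 inside genes, 14 of 29 outside genes and 14 of 67 near the start of another gene. Shares by position were not computed for the other intervals. Other gene symbols were scored at their own starts, and the microRNA genes near such starts had a butyrate-only share that was not above that of all symbols. Of the 69 butyrate-only calls, 56 were reached by no control interval either, and of the 45 control-only calls, 39 were reached by no butyrate interval. By the second definition, 57 of 232 reached genes had H3K27ac after butyrate only (24.6%, against 3.90% of all genes) and 40 in control only (17.2%, against 29.2%). Counted over intervals at any position, the members stood near the rest after butyrate. Of the H3K27ac intervals beside microRNA genes after butyrate, 51.3% (45.6 to 56.9%) overlapped a control interval, against 49.2% of all other butyrate intervals. Of those in control, 64.0% (57.2 to 70.4%) overlapped a butyrate interval, against 51.2% of all other control intervals.

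**Figure D1:**
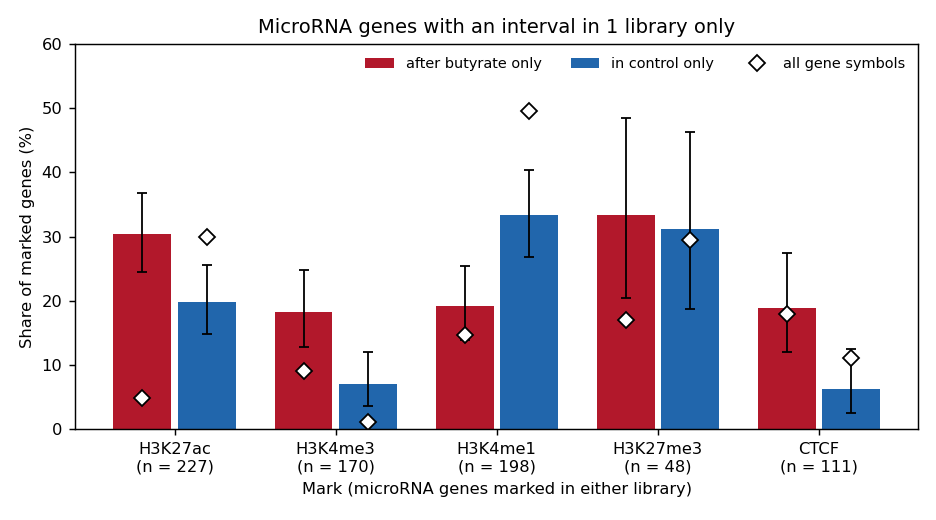
Share of marked microRNA genes (%, y axis) whose interval was present after butyrate only (red) or in control only (blue), for each mark (x axis, with the number of microRNA genes marked in either library). Bars are shares with 95% exact binomial intervals, and open diamonds give the share over all gene symbols. For H3K27ac after butyrate only, the bar stands at 30.4% and the diamond at 4.88%. Other gene symbols were scored at their own starts, so the 2 differ in position. By position, this share was 2.99% at microRNA genes near the start of another gene and 46.6% at those inside genes.

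**Figure D2:**
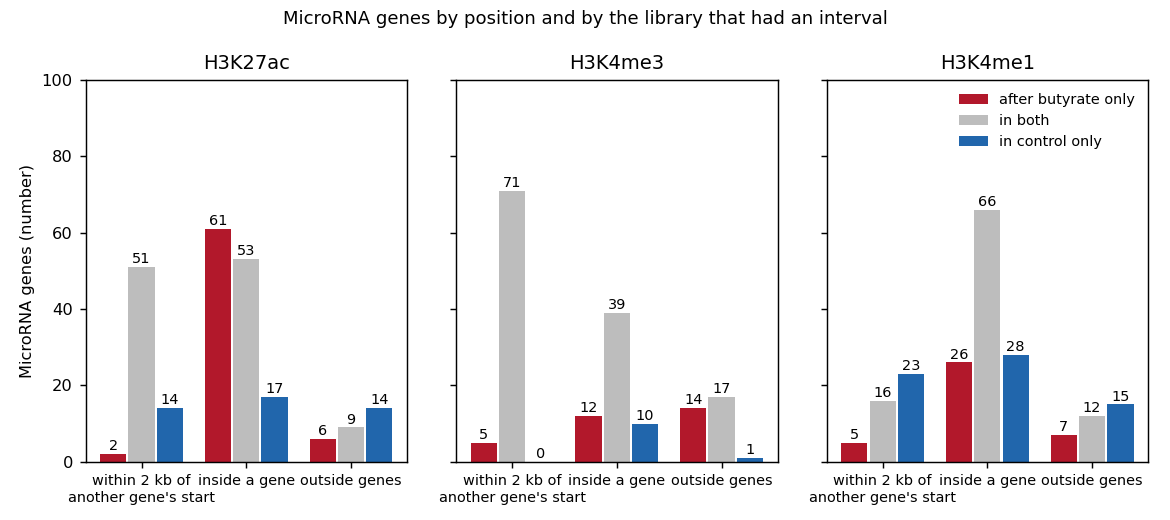
Number of microRNA genes (y axis) with an interval after butyrate only (red), in both libraries (grey) or in control only (blue), by the position of the microRNA (x axis), for H3K27ac, H3K4me3 and H3K4me1. The 61 butyrate-only H3K27ac calls inside genes stand beside 2 near the start of another gene.

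The strongest H3K27ac intervals present after butyrate only, and reached by no control interval, lay beside MIR2422 and MIR2339. MIR2422, on chromosome 4 at 93619560 (assembly UMD3.1) inside the filamin gene FLNC, had a mean signal of 56.4 after butyrate and no interval in control. MIR2339, on chromosome 19 at 31973612 inside ELAC2, a gene for tRNA 3′ end processing, had 43.4 after butyrate and no interval in control. Neither lay within 2000 bp of the start of another gene. Further calls of this kind were chosen after their values were seen, for their hosts. MIR33A inside SREBF2 had 28.5 and MIR33B inside SREBF1 had 26.9 after butyrate, with no interval in control at either. The hosts encode the sterol-regulatory transcription factors, and the microRNAs of this pair lower cholesterol export in other mammals. MIR106B, MIR25 and MIR93, a cluster inside the replication licensing gene MCM7, shared an interval of 31.5 after butyrate, with none in control.

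In 2 of the 4 highest butyrate-only calls the control had an interval close by. MIR23A and MIR27A had 46.3 after butyrate and no summit in control, yet a control interval of 116.1 reached them. MIR365-1 had 53.1 after butyrate, and a control interval of 34.7 reached it. These calls are therefore not counted as a presence against an absence. Whether the control interval overlapped the butyrate interval was not tested.

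The 3 strongest H3K27ac intervals present in control only lay near the starts of host or neighboring genes. MIR2289, on chromosome 1 at 148057014 and near the start of the arginine methyltransferase gene PRMT2, had 68.9 in control and no interval after butyrate. MIR677 near the start of ATP5B, a subunit of ATP synthase, had 50.9 in control, and MIR2342 near the start of the Mediator subunit gene MED1 had 44.6, with no interval after butyrate at either. The next call by summits, that of MIR17 outside genes at 42.6, was reached by a butyrate interval of 26.6. H3K4me3 stayed in both libraries at MIR2289, with 81.3 after butyrate and 100.9 in control.

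At the 113 microRNA genes with H3K27ac in both libraries, log2 ratios of mean signal (butyrate over control) had a median of -0.36 (order-statistic interval -0.56 to -0.14), against -0.78 over all gene symbols. Of them, 20 were at least 2-fold lower after butyrate (17.7%, against 34.0% of all gene symbols) and 1 at least 2-fold higher (0.885%, against 0.236%). These ratios depend on how the libraries are scaled. The median over all 17407 regions shared by the H3K27ac libraries was -0.41, and relative to it the microRNA median was 0.05. Scaled on the strongest 10% of shared regions it was 0.64, so no direction is given for the group. By position, the median was -0.65 near the start of another gene, -0.56 outside genes and 0.15 inside genes. The value inside genes was -0.30 with reaching intervals.

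**Figure D3:**
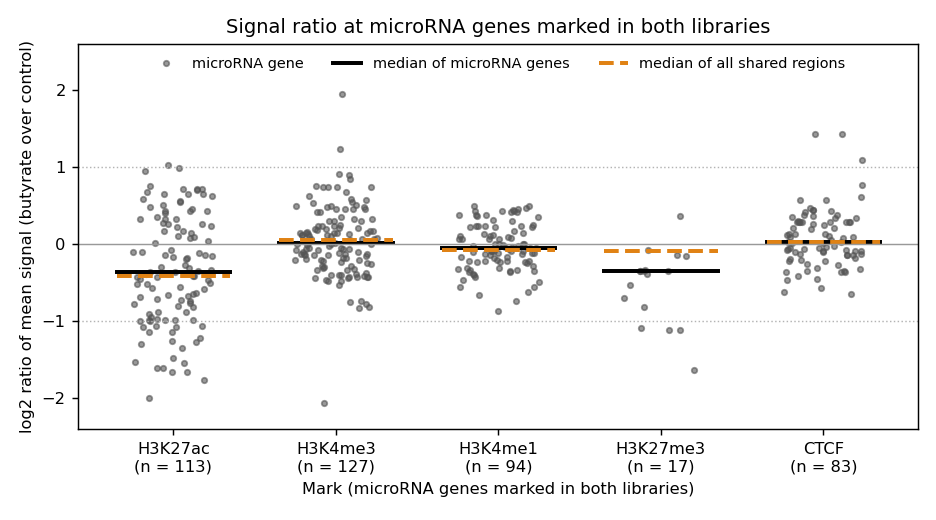
Log2 ratio of mean signal, butyrate over control (y axis), at microRNA genes marked in both libraries, by mark (x axis, with the number of genes). Each point is 1 microRNA gene, black lines are medians of microRNA genes, dashed orange lines are medians over all regions shared by the libraries, and dotted lines mark 2-fold. Of the H3K27ac points 20 lie at or under the lower dotted line, and of the H3K4me1 points none does.

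By summits, MIR1306 had the highest H3K27ac ratio among the members. It lies on chromosome 17 at 74987969, inside and near the start of DGCR8, whose protein is the partner of Drosha in cutting microRNA hairpins. Its mean signal was 43.1 after butyrate and 21.0 in control, a log2 ratio of 1.04, or 1.44 relative to the median shared region. MIR2466, inside the actin-associated gene PALLD, had 39.5 after butyrate and 19.8 in control (1.00, or 1.40 relative to the median shared region). MIR34A, a target of p53 that slows the cell cycle, had 30.6 after butyrate and 18.1 in control (0.75, or 1.16 relative). These 3 stayed above 0 under every scaling tried. MIR2416 inside MACF1, with the next highest ratio by summits, had 30.9 after butyrate but was reached by a control interval of 49.4, and is not counted with them. By reaching intervals MIR2346, with 57.9 after butyrate and 19.3 in control (1.59), and MIR2882, with 46.5 after butyrate and 21.4 in control (1.12), stood above MIR1306. Both were chosen after their values were seen.

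Of the 4 lowest H3K27ac ratios, 3 lay near the starts of other genes. MIR544B-2, near the start of THOC1, a gene of mRNA export, had 18.6 after butyrate and 74.0 in control (log2 ratio -1.99, or -1.58 relative to the median shared region). MIR6517 near DNAAF2, a dynein assembly factor, had 29.6 after butyrate and 93.5 in control, and MIR4444 near the RNA-binding protein gene HNRNPA3 had 26.7 after butyrate and 84.1 in control. The exception was MIR2431, inside a gene and not near a start, with 19.9 after butyrate and 67.3 in control. All 4 stayed below 0 under each scaling tried, at -0.66 or lower when scaled on the strongest regions. H3K4me3 beside MIR544B-2 was 122.5 after butyrate and 106.7 in control, and that beside MIR6517 was 172.9 after butyrate and 171.3 in control. Without scaling, promoter H3K4me3 thus stood within 2-fold at both while H3K27ac was at least 2-fold lower. Scaled on the strongest regions, the H3K27ac log2 ratios were -0.995 at MIR544B-2 and -0.665 at MIR6517, so neither was 2-fold lower.

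H3K4me3 marked 170 microRNA genes, 127 of them in both libraries. It was present after butyrate only at 31 genes (18.2%, 12.7 to 24.9%), against 9.01% of all gene symbols, and in control only at 12 (7.06%, 3.70 to 12.0%), against 1.15%. The median log2 ratio at genes marked in both was 0.01, against -0.01 over all gene symbols, with 2 genes at least 2-fold higher (3.98% of all gene symbols) and 1 at least 2-fold lower (0.121%). By reaching intervals, 27 of 183 genes had H3K4me3 after butyrate only (14.8%, 9.95 to 20.7%), against 8.63% of all genes, and 4 in control only (2.19%), against 0.377%. Those 4 were MIR15B, MIR16B, MIR6534 and MIRLET7C, with control signals between 16.5 and 17.8. Counted over intervals at any position, the butyrate-only share was not higher beside microRNA genes, since 76.6% (70.1 to 82.3%) of the H3K4me3 intervals beside microRNA genes after butyrate overlapped a control interval, against 70.6% of all other butyrate intervals.

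Most of the genes that H3K4me3 reached after butyrate only had lain under H3K27me3 in control, as did such genes elsewhere. Of the 27 microRNA genes reached by H3K4me3 after butyrate only, 18 (66.7%, 46.0 to 83.5%) were reached by H3K27me3 in control. Among other genes with the same call the share was 1012 of 1248 (81.1%). Seen from the control state, 51 microRNA genes were reached by H3K27me3 without H3K4me3. After butyrate 18 of these (35.3%, 22.4 to 49.9%) were reached by both marks, against 21.4% of all genes in that state, 29 were still reached by H3K27me3 without H3K4me3, and 4 by neither. Of 33 microRNA genes reached by both marks in control, 19 were reached by both after butyrate and 14 by H3K4me3 without H3K27me3 (42.4%, 25.5 to 60.8%), against 32.4% of all genes in that state. No microRNA gene reached by H3K4me3 without H3K27me3 in control gained H3K27me3, out of 123, against 0.835% of all genes in that state.

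The 18 genes lay at 16 loci and held several known from differentiated tissues. They were MIR34B and MIR34C, the HOX cluster microRNAs MIR10B and MIR196A-1, the neural MIR7-1, MIR124A-1, MIR124B and MIR153-1, the endothelial MIR126, MIR375 of endocrine cells, MIR202 of the gonad, MIR483 inside IGF2, MIR18B and MIR106A of 1 cluster on chromosome X, and MIR670, MIR2284K, MIR2405 and MIR2449. Those outside the naming rule were named after their values were seen. H3K4me3 ran between 19.1 and 78.8 after butyrate, with a median of 41.0, and no interval in control reached any of them. H3K27me3 was lower after butyrate at 18 of 18, with log2 ratios between -1.38 and -0.28 (median -0.81), and 6 were at least 2-fold lower. A lower H3K27me3 signal was general, at 78.6% of all genes reached in both libraries. Of all genes that H3K4me3 reached after butyrate only and H3K27me3 in both libraries, 93.1% were lower and 19.7% at least 2-fold lower. At the microRNA genes it was also lower at 18 of 18 relative to the median shared region, but at 10 of 18 when scaled on the strongest 10% of regions, against 37.4% of all such genes. None of the 18 was reached by H3K27ac in either library. H3K27ac was also uncommon at other genes reached by H3K27me3, at 5.14% after butyrate and 16.6% in control. CTCF reached 9 after butyrate and 6 in control, and its share over all genes with the same calls was not computed.

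**Figure D4:**
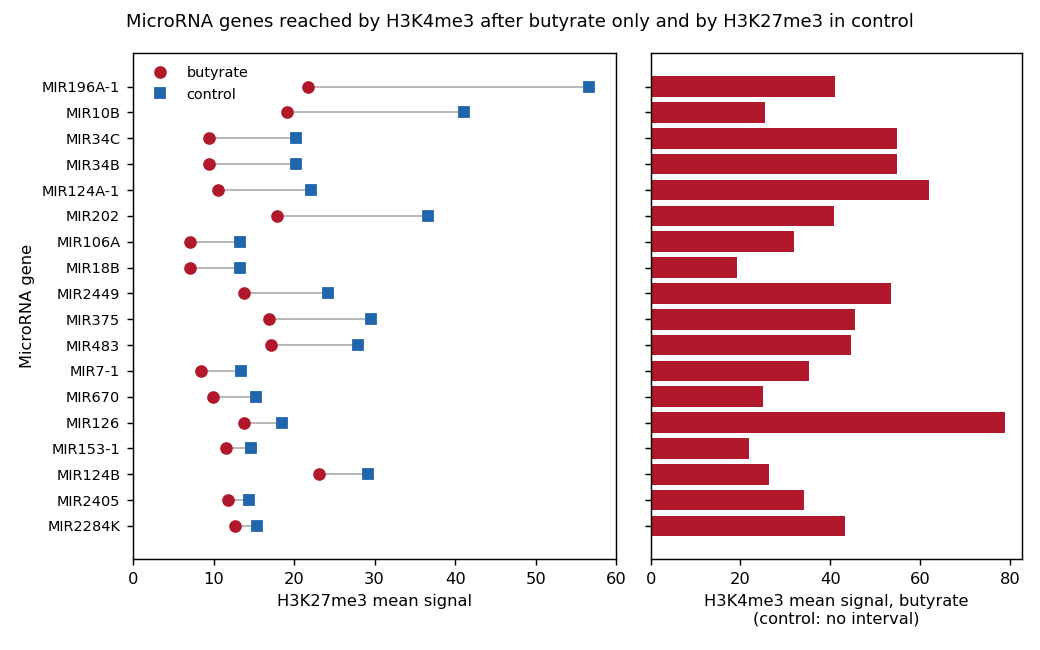
Mean signal at the 18 microRNA genes (y axis) that H3K4me3 reached after butyrate only and H3K27me3 reached in control. Left, H3K27me3 (x axis) after butyrate (circles) and in control (squares), with lines joining the values of a gene; right, H3K4me3 after butyrate (x axis from 0), with no interval in control. H3K27me3 stands lower after butyrate at 18 of 18 genes, as at 93.1% of all genes with the same calls, and at 10 of 18 when scaled on the strongest 10% of regions. The highest H3K4me3 bar is MIR126 with 78.8.

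MIR34B and MIR34C lie on chromosome 15 at 22134725 and 22135426. Their family, with MIR34A, is induced by p53 and restrains the cell cycle. The pair shared an H3K4me3 interval of 54.9 after butyrate, with none in control, while H3K27me3 was 9.39 after butyrate and 20.2 in control (log2 ratio -1.11, or -1.02 relative to the median shared region). H3K4me1 was present in control only, at 36.0, and CTCF was 26.6 after butyrate and 21.7 in control. H3K4me3 and H3K4me1 were thus each present in a single condition, and not the same one. MIR34A, on another chromosome, carried neither H3K4me3 nor H3K27me3 in either library.

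MIR375, on chromosome 2 at 107667584 and outside genes, had H3K4me3 at 45.6 and CTCF at 47.2 after butyrate, with no interval of either in control. A broad H3K27me3 interval reached it in both, with 16.9 after butyrate and 29.5 in control. MIR126, on chromosome 11 at 104131409 inside the endothelial gene EGFL7, had H3K4me3 at 78.8 after butyrate, the highest among the butyrate-only calls by summits, and none in control. Its H3K4me1 was 41.0 after butyrate and 68.2 in control, and its H3K27me3 by reaching intervals was 13.7 after butyrate and 18.5 in control. PECAM1, another endothelial gene, had no H3K4me3 at its start in either library, and H3K27ac at 28.4 after butyrate only. The HOX cluster pair had the highest control H3K27me3 of the 18 genes. MIR196A-1, inside HOXB9, was reached by 21.8 after butyrate and 56.6 in control, and MIR10B, near the start of HOXD4, by 19.1 after butyrate and 41.1 in control.

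MIR149, on chromosome 3 at 120467948 inside the glypican gene GPC1, had the highest H3K4me3 ratio. Its H3K4me3 was 102.6 after butyrate and 26.6 in control, a log2 ratio of 1.95. H3K27me3 intervals reached it in both, with 23.6 after butyrate and 16.5 in control, so that here H3K27me3 was not lower. MIR2885, near the start of the synaptotagmin gene SYT7, had H3K4me3 at 51.5 after butyrate and 21.8 in control (1.24), and H3K27me3 by reaching intervals at 15.1 after butyrate and 21.0 in control. MIR6518 near the start of ADM, which encodes the vasodilator adrenomedullin, had 133.7 after butyrate and 72.0 in control (0.89). The lowest ratio, that of MIR378-1 inside PPARGC1B with 34.8 after butyrate and 145.8 in control, did not hold by reaching intervals, which gave 166.8 after butyrate and 145.8 in control.

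H3K27me3 intervals were long, with a median of 7199 bp after butyrate and 7699 bp in control beside microRNA genes, and few had their summit close to a microRNA. By summits 48 microRNA genes were marked, 17 in both, 16 after butyrate only (33.3%, 20.4 to 48.4%, against 17.0% of all gene symbols) and 15 in control only (31.2%, 18.7 to 46.2%, against 29.5%). By reaching intervals 87 were reached, 66 in both, 3 after butyrate only (3.45%, against 8.56% of all genes) and 18 in control only (20.7%, against 18.8%). Of 12 butyrate-only calls by summit with a derived start, 9 were reached in control too, and of 15 control-only calls, 8 were reached after butyrate. The median log2 ratio by summits was -0.35 (interval -0.81 to -0.33), against -0.48 over all gene symbols, with 4 genes at least 2-fold lower (23.5%, against 14.1%) and 0 at least 2-fold higher (against 0.0777%). By reaching intervals it was -0.39, with 14 of 66 at least 2-fold lower (21.2%, against 11.6% of all genes) and 0 higher (against 0.0159%). Scaled on the strongest 10% of shared regions the median by summits was 0.40, so the sign for the group rests on the scaling.

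MIR210, which low oxygen induces in many cells, had the lowest H3K27me3 ratio by summits. It lies on chromosome 29 at 51025433. Its H3K27me3 was 12.6 after butyrate and 39.1 in control, a log2 ratio of -1.63, or -1.54 relative to the median shared region and -0.89 when scaled on the strongest regions. H3K4me3 was 118.3 after butyrate and 100.4 in control, H3K4me1 was 63.5 after butyrate and 49.4 in control, and H3K27ac was present in control only, at 34.4. The lower H3K27me3 thus did not go with an H3K27ac interval. MIR132 and MIR212, a pair induced by neuronal activity, on chromosome 19 at 23651240 for MIR132, shared an H3K27me3 interval of 20.9 in control, and none reached them after butyrate. Their H3K4me3 was 73.0 after butyrate and 69.6 in control, and their H3K4me1 was present in control only, at 61.8. MIR150 of lymphocytes had H3K27me3 at 7.26 after butyrate and 15.4 in control (-1.08). By summits, H3K27me3 was higher after butyrate at 1 of the 17 genes marked in both libraries, MIR187, with weak signals of 6.78 after butyrate and 5.26 in control (0.36; chosen after its values were seen). Among genes at or above the library median the highest ratio was that of MIR499, a heart and muscle microRNA inside MYH7B, with 10.4 after butyrate and 10.9 in control (-0.07). By reaching intervals 10 of the 66 genes were higher after butyrate, MIR149 among them.

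Acetyl and trimethyl groups exclude each other on lysine 27 of a histone tail, and both were seldom found at the same microRNA. By reaching intervals, 2 of the 69 microRNA genes with H3K27me3 after butyrate had H3K27ac as well (2.90%, 0.353 to 10.1%), against 11 of 84 in control (13.1%, 6.72 to 22.2%). At other genes the shares were 5.14% after butyrate and 16.6% in control. By summits, 49 of 359 microRNA genes carried H3K27ac and no other of the 5 marks after butyrate, against 12 in control. Genes became members through an interval in any library, and 86 had no mark in control, against 15 after butyrate. The counts of 49 and 12 therefore depend on the selection, and no share over all genes was computed for them.

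H3K4me1 marked 198 microRNA genes, 94 in both libraries. It was present after butyrate only at 38 (19.2%, 13.9 to 25.4%, against 14.7% of all gene symbols) and in control only at 66 (33.3%, 26.8 to 40.4%, against 49.5%). At genes marked in both the median log2 ratio was -0.05, with 0 genes at least 2-fold higher (against 0.139% of all gene symbols) and 0 at least 2-fold lower (against 0.522%). The control-only calls were mostly full absences after butyrate, since 61 of 66 were reached by no butyrate interval. The strongest of these were MIR22 with MIR3600 at 68.6, MIR132 with MIR212 at 61.8, and MIR140, a cartilage microRNA inside WWP2, at 60.8, with no interval after butyrate. After butyrate only, MIR2452 inside SORCS2 had 55.3 and MIR2422 had 55.0, with no control interval reaching either. MIR2422 therefore carried H3K27ac and H3K4me1 after butyrate and no mark in control. The highest mean H3K4me1 signals lay beside MIR2883 inside CMIP, with 78.4 after butyrate and 85.7 in control, and MIR455 inside the collagen gene COL27A1, with 87.7 after butyrate and 64.4 in control.

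CTCF marked 111 microRNA genes, 83 in both libraries. It was present after butyrate only at 21 (18.9%, 12.1 to 27.5%, against 18.0% of all gene symbols) and in control only at 7 (6.31%, 2.57 to 12.6%, against 11.1%). The butyrate-only share stood near that of all gene symbols. The median log2 ratio was 0.04, with 3 genes at least 2-fold higher (3.61%, against 0.522%) and 0 at least 2-fold lower (against 0.100%). The 3 were MIR27A and MIR24-2, which share 1 interval, and MIR2890. Reaching intervals gave MIR27A and MIR24-2 76.1 after butyrate and 81.9 in control, so their ratio did not hold, and left MIR2890 with 87.6 after butyrate and 40.9 in control (1.10). The highest CTCF signals lay beside MIR26A-1 inside CTDSPL, with 80.7 after butyrate and 103.9 in control, MIR1260B near the start of the Notch coactivator gene MAML2, with 80.8 after butyrate and 73.2 in control, and MIR33B, with 82.0 after butyrate and 60.5 in control.

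Families of microRNAs were compared by list, each described by its counts. The lists were drawn up with earlier results of these data known. Of the 5 symbols of the MIR200 family, MIR200C and MIR141 were members, and they share a promoter region. The others had no interval within 2000 bp in any library. They had H3K4me3 at 35.7 after butyrate and 21.2 in control (log2 ratio 0.75) and H3K27ac at 27.4 after butyrate and 29.4 in control, with CTCF at 63.1 after butyrate and 66.7 in control. This family holds epithelial cells back from a mesenchymal state. The let-7 family, which marks differentiated cells, had 5 members, all 5 marked by H3K27ac and 4 of them in both libraries (65.2% of all gene symbols). Among these 4, MIRLET7I had 54.6 after butyrate and 67.1 in control, and MIRLET7B had 39.7 after butyrate and 29.6 in control.

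The MIR17 cluster and its paralogs, which promote proliferation, had 11 members. Several of them are neighbors that share an interval, so the counts are of genes and not of loci. By summits, 8 of 8 marked had H3K4me3 after butyrate only (9.01% of all gene symbols). H3K27ac was present in control only at 6 of 9 marked (29.9% of all gene symbols) and after butyrate only at the other 3 (4.88%). Yet by reaching intervals 6 of the 8 were reached by H3K4me3 in both libraries. For H3K27ac they left 4 members in control only and 3 after butyrate only. MIR17, on chromosome 12 at 66226554, was reached by H3K4me3 at 80.8 after butyrate and 49.5 in control, and by H3K27ac at 26.6 after butyrate and 42.6 in control. H3K4me1 lay beside 6 members in control only (49.5% of all gene symbols), with the same signal of 36.1 at each, and no butyrate interval reached them. The MIR15 and MIR16 family, which targets cyclins, had 4 members. Of these 2, MIR15B and MIR16B, had H3K27ac in control only, at 18.7 (control-only share of all gene symbols 29.9%). Their H3K4me3 was present in control only too, at 16.5 (control-only share of all gene symbols 1.15%). At these low signals the calls lie close to the weakest intervals of the libraries.

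Of the neural list, 18 microRNA genes were members and H3K27ac marked 1 of them, against 227 of all 359 microRNA genes. H3K4me3 marked 11, against 170 of the 359. Of the 11, 7 were marked in both libraries and 4 after butyrate only (9.01% of all gene symbols). The median log2 ratio of the 7 was 0.33, against -0.01 over all gene symbols. The lowest of the 7 ratios was 0.01, that of MIR219-2, and the highest that of MIR149. H3K27me3 reached 16 of the list, against 87 of the 352 microRNA genes with a derived start. Of the 16, 13 were reached in both libraries and 3 in control only, with a median log2 ratio of -0.39. The control-only count stood near the share of all reached genes (18.8%). MIR137 had H3K4me3 at 41.2 after butyrate and 24.3 in control (0.76), and H3K27me3 at 19.4 after butyrate and 24.4 in control. The exception within the list was MIR219-2, the 1 member with H3K27ac, at 60.6 after butyrate and 118.5 in control, and the highest mean H3K4me3 of the members, at 189.0 after butyrate and 188.0 in control.

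The microRNAs tied to immediate early and stress responses had 11 members, of which 8 of 9 marked had H3K4me3 in both libraries (89.8% of all gene symbols) and 6 of 10 marked had H3K4me1 in control only (49.5% of all gene symbols). Both stood near the share of all gene symbols. MIR320A-1, whose H3K27ac was 33.3 after butyrate and 101.1 in control (log2 ratio -1.60), kept H3K4me3 at 111.4 after butyrate and 111.2 in control. MIR193A had H3K4me3 at 136.9 after butyrate and 99.5 in control. The ruminant MIR2284 and MIR2285 families, with many near-identical copies, had 21 members of 59 symbols. H3K27ac was present in control only at 6 of the 11 that it marked (29.9% of all gene symbols). Reads of such copies may not be placed uniquely, and these calls are uncertain.

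**Figure D5:**
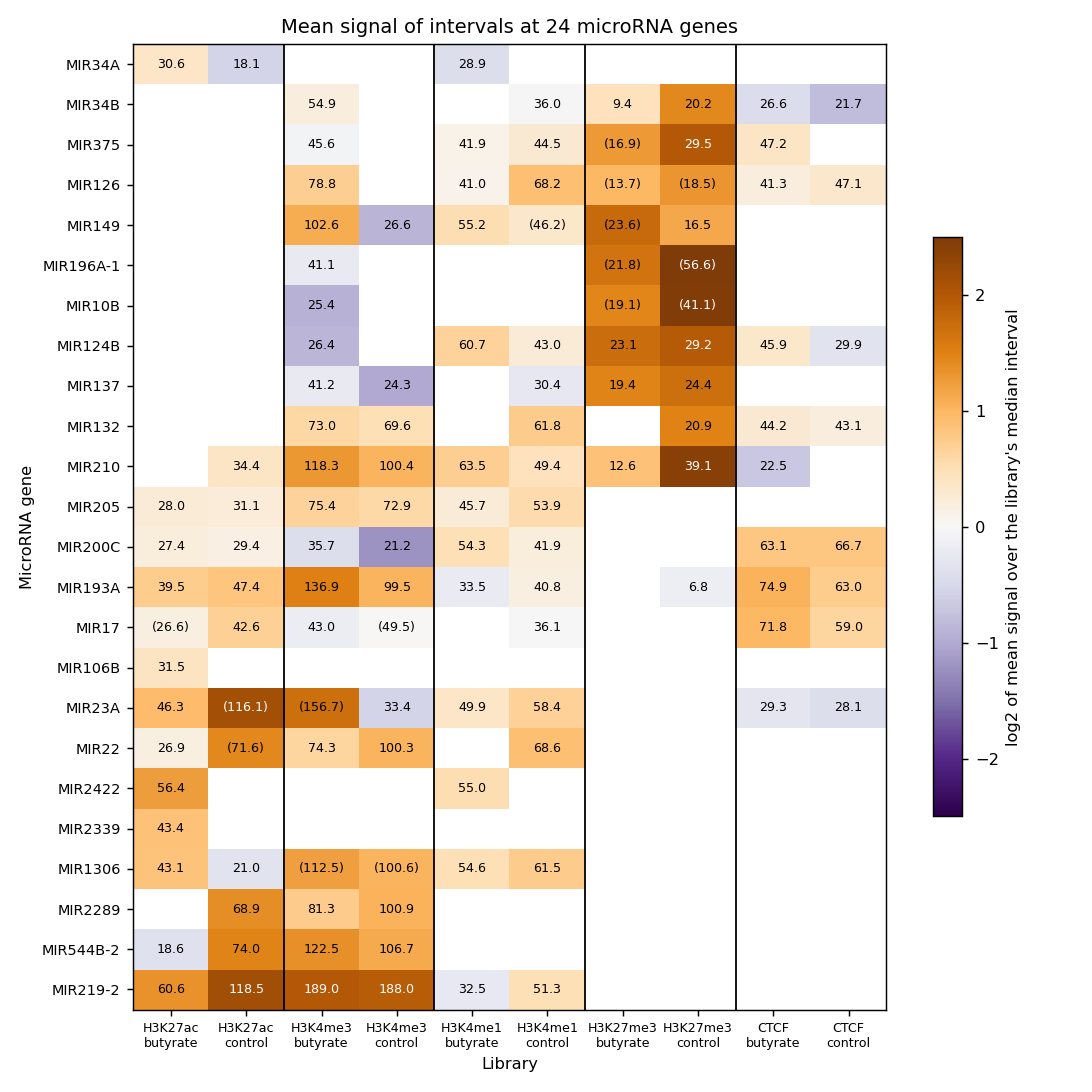
Mean signal of intervals at 24 microRNA genes (rows) in the 10 libraries (columns, butyrate left of control for each mark). Numbers are mean signals, in parentheses where an interval reached the gene but had its summit further than 2000 bp away, white cells had no interval, and color gives the log2 ratio to the median interval of that library. MIR34B, MIR375, MIR126, MIR196A-1, MIR10B and MIR124B show H3K4me3 after butyrate, none in control, and a lower H3K27me3 signal after butyrate. Unscaled H3K27me3 was lower at 93.1% of all genes with the same calls. Scaled on the strongest 10% of regions, its log2 ratio was above 0 at MIR126 (0.32) and MIR124B (0.41) and below 0 at the other genes named.

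Markers of other cells were also among the microRNA genes. The members held 3 of 6 symbols of the blood list, 3 of 9 of muscle and heart and 3 of 4 of smooth muscle and fibroblasts. They also held 1 of 1 of endothelium and 3 of 6 of epithelium (MIR141, MIR200C and MIR205). The 3 epithelial genes had H3K4me3 and H3K27ac in both libraries. Of the blood list, MIR155 had H3K27ac at 17.2 after butyrate and none in control. Of smooth muscle and fibroblasts, MIR145, MIR199A-2 and MIR199B had no H3K4me3, but MIR199A-2 had H3K27ac at 27.2 after butyrate and 36.3 in control, a level like that of MIR205, and H3K4me1 at 53.1 after butyrate and 66.7 in control. The heart microRNA MIR208A, inside MYH6, had H3K4me3 at 44.1 after butyrate and none in control, and no H3K27me3 interval reached it. What part other cells had in these values was not tested.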

How the data were processed

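Rumen epithelial primary cells were assayed by ChIP-seq in 11 libraries, of which 1 was input and not analysed here. The authors trimmed reads with Trim Galore 0.4.1, aligned them with BWA to UMD3.1 and called intervals with MACS2, per the submitters' processing notes. H3K27me3 starts lie on a 200 bp grid, and the tool behind it is not given in the sources used here. The deposited signal is a tag density, given as a whole number at the summit and as the average used here, taken over 32 bp bins. How libraries were scaled to each other is not stated, nor whether coordinates count from 0 or 1. Read totals are not in the table and those in the study's mapping summary were not used here, so no precision from depth is given.

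Starts of microRNA genes were derived from the summit and the deposited distance, from at least 2 listings of which 90% agreed (a start needs intervals near the gene, so unmarked genes have none). Symbols were compared with RefSeq names of ARS-UCD2.0, where 352 of 359 matched, for hosts only. Groups came from the labels. Log2 ratios used no pseudocount. A 2-fold ratio was counted, and no test was made. Medians have order-statistic intervals and shares exact binomial intervals at 95%. Relative ratios subtract the median over regions where intervals of both libraries overlapped by at least 1 bp.

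Named genes were, per mark and among genes with a signal of at least the library median, the 4 highest and 4 lowest ratios, the 4 strongest calls in each single library and the 3 highest means, plus genes marked in at least 8 libraries and up to 4 members of each list. Other genes are said to be chosen after their values were seen, or stand as members of a group. The members, lists and rule were chosen with earlier results of these data known. Scripts were tested on simulated data. Alternatives were windows of 1 and 5 kb, stricter or equally many intervals, loci in place of genes, overlap of 50%, the peak signal, a pseudocount of 1, a signal minimum, 2 scalings, folds of 1.5 and 3, and reaching intervals, which were added after the data were seen. Computation used Python 3.11.15, pandas 2.3.3, numpy 2.4.6 and scipy 1.17.1. The intervals' sequences were not used here.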

Additional observations from a re-analysis of the deposited data

How the results depend on the processing

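No paired analysis was possible because each mark and condition had 1 library, and leaving out a replicate was not possible either. Of 255 values recomputed under another setting, 195 stayed within the stated bounds, 57 moved beyond them and 3 reversed; causes were not tested. The 3 reversals all came from the scaling, and the window of 5 kb moved the most values, 10 of 25. Centred on the median shared region, the H3K27ac median log2 ratio reversed to 0.0505, with 13 genes at least 2-fold higher and 9 lower, and medians were 0.0267 for H3K4me1 and -0.26 for H3K27me3. Scaled on the top 10% of regions, the H3K27ac median reversed to 0.64, with 40 genes higher and 0 lower, the H3K27me3 median reversed to 0.40, with 1 higher and 0 lower, and the H3K4me1 median was 0.11. With the peak signal the medians were -0.63 for H3K27ac, with 4 genes higher and 46 lower, and -1.07 for H3K27me3, with 9 lower, and the counts were 7 higher for H3K4me3 and 3 lower for H3K4me1. A pseudocount of 1 gave -0.33 for H3K27me3. With a window of 1 kb the butyrate-only shares were 37.5% for H3K27ac, 26.6% for H3K4me3 and 26.5% for H3K4me1, the CTCF median was -0.0703, and counts were 0 higher for H3K27ac, 4 higher for H3K4me3, 2 lower for H3K27me3 and 1 higher for CTCF. With a window of 5 kb the butyrate-only shares were 21.3% for H3K27ac and 12.3% for H3K4me1, the control-only shares were 2.79% for H3K4me3 and 26.1% for H3K4me1, and counts were 4 higher and 34 lower for H3K27ac, 6 higher and 0 lower for H3K4me3, 7 lower for H3K27me3 and 1 higher for CTCF. Stricter intervals gave 0 higher for H3K27ac and 1 each for H3K4me3 and CTCF, and equally many intervals gave 13 lower for H3K27ac. A fold of 1.5 gave 13 higher and 43 lower for H3K27ac, 13 higher and 6 lower for H3K4me3, 4 lower for H3K4me1, and 5 higher and 2 lower for CTCF. A fold of 3 gave 0 higher and 6 lower for H3K27ac, 1 higher for H3K4me3, 1 lower for H3K27me3 and 0 higher for CTCF. Reaching intervals gave a butyrate-only share of 3.45% for H3K27me3, a control-only share of 2.19% for H3K4me3, and counts of 3 higher for H3K27ac, 4 higher for H3K4me3, 14 lower for H3K27me3 and 1 higher for CTCF. The H3K27ac butyrate-only share stayed between 21.3 and 37.5% under the settings run. Loci in place of genes moved no value beyond its bounds.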
